A study of Mus musculus with 6 samples.

Results

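Of the 20596 genes with a symbol in the deposited expression table, 9 are described here: the TCF/LEF transcription factor genes Tcf7, Tcf7l1, Tcf7l2 and Lef1, the beta-catenin gene Ctnnb1, and the feedback and scaffold genes Axin1, Axin2, Znrf3 and Rnf43. They were selected by symbol, all 9 have a row, and 7 passed the filter on low values. RNA sequencing had compared 3 libraries of the mouse pancreatic acinar tumour line 266.6 exposed to medium conditioned by cancer-associated fibroblasts (CAF_CM, for up to 40 days) with 3 control libraries of the same line, all grown in DMEM HG medium with serum. The line comes from a tumour driven by a viral T antigen under an acinar elastase promoter, so both groups are proliferating tumour cells and not primary acini. The labels give this growth medium for all libraries and repeat the text on exposure for all of them. They do not give the source of the fibroblasts, what the controls received in place of conditioned medium, or how long the controls were cultured, so effects of the conditioned medium and of culture time cannot be told apart.

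In the canonical Wnt pathway, a Wnt ligand that binds a Frizzled receptor and the co-receptor Lrp5 or Lrp6 stops a cytoplasmic destruction complex, built on Axin together with Apc, Gsk3 and casein kinase, from marking beta-catenin for degradation. Beta-catenin then accumulates and enters the nucleus, where it acts through TCF/LEF factors bound to DNA. Axin2, Znrf3 and Rnf43 are widely used reporters of this output, since the pathway induces them and their products dampen it: Axin2 rebuilds the destruction complex, and Znrf3 and Rnf43 are ubiquitin ligases that remove Frizzled receptors from the cell surface. In the pancreas, beta-catenin is required for the growth of the acinar lineage. Beta-catenin activity is set mainly by protein stability, which RNA values do not show.

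The deposited values are normalized counts, that is, reads divided by 1 factor per library, and the reads behind them numbered between 18622370 and 21002226 per library. The common biological coefficient of variation, 2.21% in control, was 8.26% in CAF_CM. No label says that replicates were separate cultures, so the p-values reflect library-to-library spread that could be purely technical. Limma, with Benjamini-Hochberg adjustment over all 16169 genes tested and a threshold of 0.05, called 34.4% of them, 18.3% higher and 16.1% lower in CAF_CM. The higher genes numbered 2953 and the lower 2602, but 1865 and 1612 without control replicate 1, 1963 and 1667 without control replicate 2, and the lower genes 1678 without control replicate 3. All 13 acinar markers had values, and their summed normalized counts were 69980 to 72482 for the controls and 39242 to 45876 for CAF_CM, with 1 higher and 6 lower. Ductal markers summed to 1208 to 1236 in control and 1641 to 2075 in CAF_CM libraries, with 3 of 6 tested higher. Most of the acinar sum came from Ctrb1, and most of the ductal sum from Onecut1 and Sox9. The part of these shifts in the results was not tested, and in bulk RNA fewer cells of a type and less RNA per cell cannot be told apart.

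Of the 7 genes tested, 4 were higher (Tcf7, Axin2, Znrf3 and Ctnnb1) and 1 was lower (Tcf7l2) in CAF_CM libraries, against the shares of 18.3% and 16.1% over all genes. The genes were chosen with earlier results of these data known, so the difference from these shares is not a test. The same 5 were those whose groups of libraries did not overlap, which held for 47.7% of all genes tested, 24.8% with CAF_CM higher and 22.9% with CAF_CM lower. Tcf7 rose 2.05-fold, Axin2 1.74-fold, Znrf3 1.30-fold and Ctnnb1 1.13-fold, and Tcf7l2 fell 1.52-fold. Tcf7l1 and Axin1 did not pass the test. Lef1 and Rnf43 were too low to be tested, with at most 10 reads in a library. The median log2 fold change of the 7 was 0.25, beside 0.0046 over all genes tested.

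**Figure D1:**
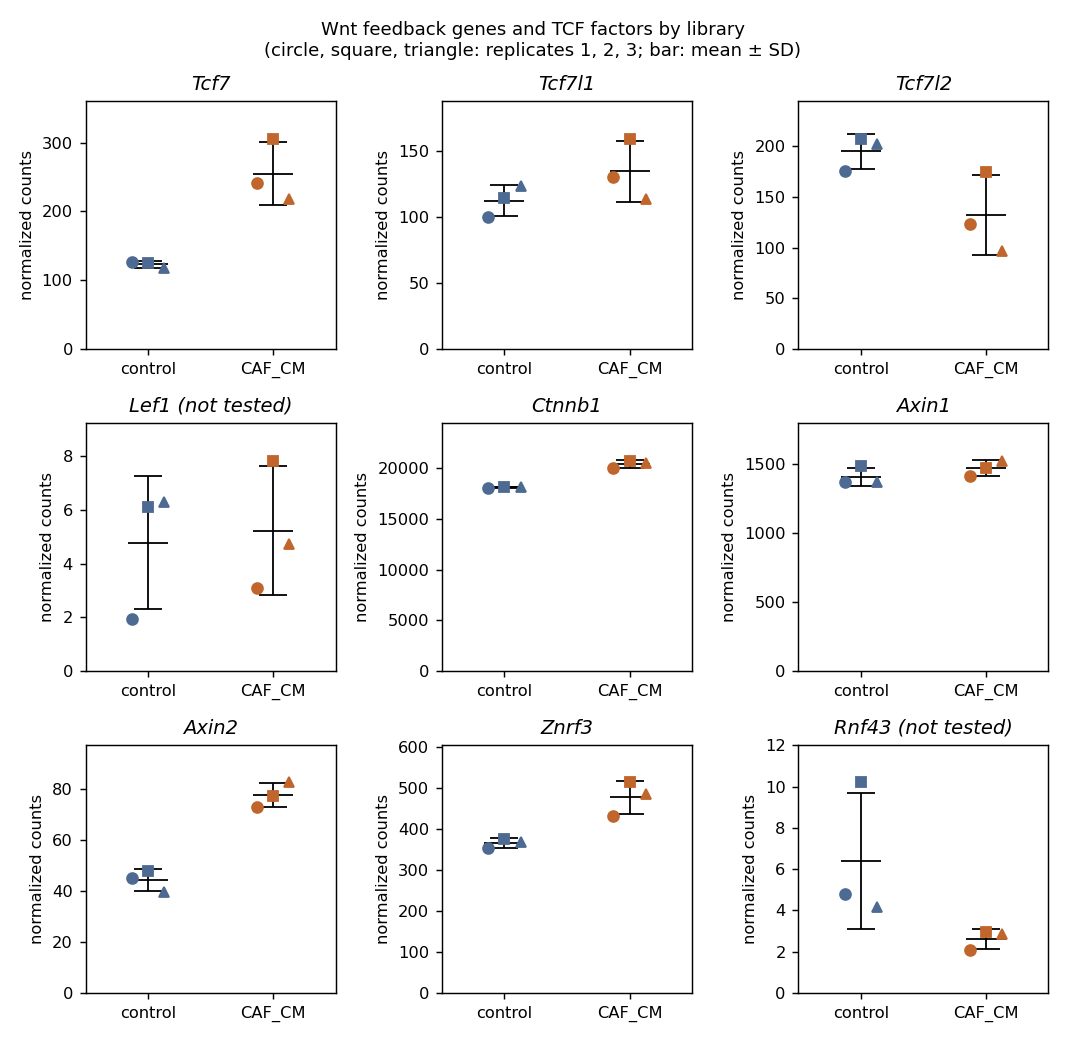
Normalized counts of the 9 genes in each library, on linear axes that start at 0, with control in blue, CAF_CM in orange, the marker shape giving the replicate and bars giving the mean ± SD (n = 3). Tcf7, Axin2, Znrf3 and Ctnnb1 were higher in all 3 CAF_CM libraries than in any control, Tcf7l2 was lower, and Lef1 and Rnf43 stayed near the detection limit.

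Tcf7 encodes TCF1, a factor that activates Wnt targets when bound to beta-catenin and that also exists as short forms without the beta-catenin binding end. Control replicates 1, 2 and 3 held 127, 124 and 117 normalized counts, against 241, 306 and 218 for CAF_CM replicates 1, 2 and 3. The groups did not overlap, the lowest CAF_CM library stood far above the highest control, and CAF_CM replicate 2 was the highest. The log2 fold change, on log2(value + 1) here and throughout, was 1.03 with an SE of 0.12 and a 95% interval of 0.76 to 1.31 (limma, adjusted p = 1.63e-04). Among all genes tested it was the 64th largest log2 fold change, and 72 called genes rose 2-fold or more. Without CAF_CM replicate 2, the log2 fold change was 0.89. The table gives 1 value per gene, so long and short forms of Tcf7 cannot be told apart.

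Axin2 encodes the inducible Axin, whose transcription is a standard readout of beta-catenin activity. In the same order, controls had 45.3, 47.9 and 39.8 normalized counts and CAF_CM libraries 73.1, 77.4 and 82.6. The groups did not overlap, and the spread within CAF_CM (SD 4.74) was close to that within control (SD 4.17). This is a log2 fold change of 0.80, SE 0.15, with a 95% interval of 0.47 to 1.12 (limma, adjusted p = 0.00196), the 190th largest of all genes tested. These values rest on 132 reads in the control and 237 in the CAF_CM libraries.

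The sequences before annotated starts of Tcf7 and Axin2, the pair of genes here with the largest rises, and of an internal start of Tcf7l2, the gene that fell, are shown because TCF/LEF factors bind a short motif that such windows can be searched for. They are the 250 bases before RefSeq starts on GRCm38.p6, read 5′ to 3′ on the strand of the gene, with any motif match in capitals. The first lies at chr11:52283015-52283264 on the minus strand, directly before the start of 1 GENCODE transcript of Tcf7 and inside the longer locus A630014C17Rik. The second lies at chr11:108920099-108920348 on the plus strand, directly before the start of 1 GENCODE transcript of Axin2 and outside any annotated exon. The third lies at chr19:55895071-55895320 on the plus strand, in an intron of the longer Tcf7l2 transcripts.
Tcf7: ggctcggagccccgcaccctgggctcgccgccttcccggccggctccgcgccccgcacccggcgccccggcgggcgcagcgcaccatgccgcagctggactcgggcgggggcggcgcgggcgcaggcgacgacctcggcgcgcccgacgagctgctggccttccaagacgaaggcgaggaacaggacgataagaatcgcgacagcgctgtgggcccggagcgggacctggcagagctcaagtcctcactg
Axin2: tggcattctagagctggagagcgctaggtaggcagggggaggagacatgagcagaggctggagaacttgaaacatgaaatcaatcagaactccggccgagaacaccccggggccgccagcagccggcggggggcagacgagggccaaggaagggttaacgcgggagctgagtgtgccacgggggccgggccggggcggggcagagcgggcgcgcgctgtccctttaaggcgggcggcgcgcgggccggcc
Tcf7l2: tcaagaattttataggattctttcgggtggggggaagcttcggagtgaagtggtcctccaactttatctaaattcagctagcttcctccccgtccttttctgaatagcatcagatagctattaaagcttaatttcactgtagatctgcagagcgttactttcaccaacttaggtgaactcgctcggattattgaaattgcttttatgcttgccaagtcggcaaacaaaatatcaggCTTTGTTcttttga

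The motif searched was the TCF/LEF core in 4 forms, on both strands and with no other motif. Its forms were AACAAAG as the first, ATCAAAG as the second, TACAAAG as the third and TTCAAAG as the last. The motif was absent from the windows of Tcf7 and Axin2 and present once in the Tcf7l2 window shown, at bases 237 to 243. That window was chosen because it holds a match. The other Tcf7l2 window, at chr19:55741560-55741809 before the start of the long transcripts, holds none and has 72.8% GC, so the windows give no motif or GC contrast between the genes that rose and the gene that fell. RefSeq windows were found for 7 of the 9 genes, Axin1 and Znrf3 being the others. Of their 14 windows, 2 held the motif, the other being an internal window of Lef1, and of all 32851 RefSeq windows of this length 14.84% did. In the Tcf7 window, an ATG at base 86 opens a reading frame of 55 codons with no stop to the window's end. Its frame is known, as background, as the start of the long, beta-catenin-binding form of TCF1, so the window is shown as annotated and not taken as a promoter. Frame length alone does not mark such a start, since the Axin2 window also holds an open frame, of 59 codons. The windows of Tcf7 and Axin2 shown are GC-rich, at 76% and 69.2% against a median of 52.4% for all windows, while the internal Tcf7l2 window has 40.8%. A match is only a run of letters, and its absence says nothing of sites elsewhere.

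Tcf7l2 encodes TCF4, the main TCF factor of the gut epithelium. Normalized counts were 175.3, 207 and 202 for the controls against 124, 174.3 and 96.8 for CAF_CM. The groups did not overlap, but CAF_CM replicate 2 almost reached control replicate 1. Limma gave a log2 fold change of -0.60, SE 0.18, with a 95% interval of -0.99 to -0.21 and an adjusted p = 0.0223. The call was lost without control replicate 2 (-0.55, adjusted p = 0.0836), control replicate 3 (-0.57, adjusted p = 0.0763) or CAF_CM replicate 3 (-0.40, adjusted p = 0.0825), and without CAF_CM replicate 2 the value was -0.82 (adjusted p = 6.26e-04).

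Tcf7l1 encodes TCF3, which acts mostly as a repressor of Wnt targets. Controls had 100.2, 114 and 124 normalized counts, CAF_CM replicates 131, 159.6 and 114. The groups overlapped, and the highest value was again in CAF_CM replicate 2. The log2 fold change was 0.25, SE 0.14, with a 95% interval of -0.063 to 0.56 (limma, adjusted p = 0.202), so a rise of the size seen for Znrf3 lies within it. Part of its exons, 179 of 3924 bases, overlaps an antisense gene, and whether reads were counted by strand is not given in the sources used here. Antisense genes also overlap 209 of 5506 exon bases of Axin2, 1208 of 8788 of Lef1 and 759 of 5192 of Ctnnb1, the last with Ulk4, which has a mean of 71.0 normalized counts for the controls and 85.7 for CAF_CM.

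Lef1, the TCF/LEF member best known from lymphocytes and hair follicles, was near the detection limit. Its reads numbered 2, 6 and 6 for the controls, against 3, 8 and 5 for CAF_CM. The summed reads, 14 and 16, give a ratio of 1.08 per read sequenced, with an exact 95% interval for counting error only of 0.49 to 2.39, which does not exclude a change of 2-fold in either direction. Fitted without the filter on low values, Lef1 had a log2 fold change of 0.15 with a 95% interval of -0.90 to 1.20 (limma, adjusted p = 0.858). Tcf7 and Lef1 are also genes of T cells. Of 11 T cell markers, 4 have a value, the receptor genes Cd3d, Cd3e, Cd3g, Cd4 and Cd8a being among those with none, and the sum was 115 to 136 normalized counts for the controls and 117 to 152 for CAF_CM, most of it from the kinase gene Lck.

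**Figure D2:**
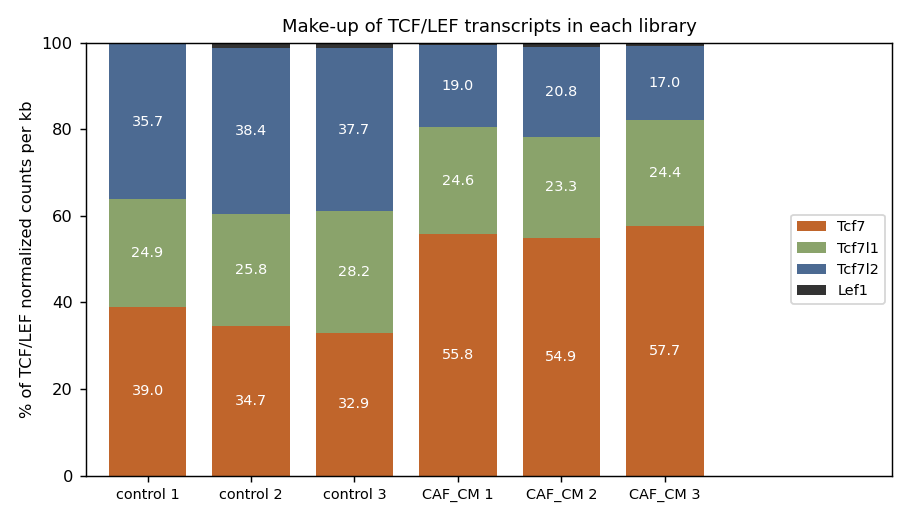
Share of the 4 TCF/LEF genes in their summed normalized counts per kb of longest GENCODE transcript, 1 stacked bar per library, in percent. Tcf7 made up 32.9% to 39.0% in control and 54.9% to 57.7% in CAF_CM libraries, and Tcf7l2 35.7% to 38.4% and 17.0% to 20.8%.

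Set against each other within a library, Tcf7 held a larger and Tcf7l2 a smaller share in CAF_CM libraries. Per kb of the longest GENCODE transcript, Tcf7 made up 35.5% ± 3.11 (SD, n = 3) of the summed TCF/LEF values in the controls and 56.1% ± 1.41 with CAF_CM. The share of Tcf7l2 went from 37.3% ± 1.37 to 19.0% ± 1.91, while Tcf7l1 had 26.3% ± 1.67 and 24.1% ± 0.717 and Lef1 had 0.914% ± 0.447 and 0.761% ± 0.246. Neither the Tcf7 nor the Tcf7l2 shares of the groups overlapped. The shares depend on the transcript length assumed: with the mean length of all GENCODE transcripts, an alternative added after the data were seen, Tcf7 made up 24.5% ± 2.52 in control and 42.1% ± 1.23 in CAF_CM libraries.

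The ratio of Tcf7 to Tcf7l2 normalized counts compares libraries without any assumption on length. Controls had ratios of 0.725, 0.601 and 0.580, CAF_CM replicates 1.95, 1.75 and 2.25. CAF_CM replicate 2 had the highest Tcf7, Tcf7l1 and Tcf7l2 of the treated libraries, and the lowest ratio of them, still above every control. These ratios combine the changes already tested gene by gene and were given no test of their own.

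Ctnnb1, which encodes beta-catenin, was by far the most abundant of the 9 genes. Normalized counts of 18100.2, 18199 and 18154 for the controls stood against 20029, 20783 and 20582 for CAF_CM. All 3 CAF_CM libraries were above all controls by a small margin. This amounts to a log2 fold change of 0.17, SE 0.046, with a 95% interval of 0.073 to 0.27 (limma, adjusted p = 0.0128). The call was lost without control replicate 1 (0.17, adjusted p = 0.0580), control replicate 2 (0.17, adjusted p = 0.0712) or control replicate 3 (0.17, adjusted p = 0.0629).

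Axin1, the constitutive scaffold of the destruction complex, gave 1368, 1483 and 1367 normalized counts for the controls, against 1411, 1470.0 and 1523 for CAF_CM. The groups overlapped. Its log2 fold change was 0.063, SE 0.056, with a 95% interval of -0.060 to 0.18 (limma, adjusted p = 0.420), which leaves out a change as large as that of Axin2. As a percentage of Axin1 counts, Axin2 counts came to 3.31%, 3.23% and 2.91% for the controls, against 5.18%, 5.26% and 5.42% for CAF_CM.

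Znrf3, a ligase that clears Frizzled receptors, gave 353, 376 and 368 normalized counts for the controls, against 432, 513 and 485 for CAF_CM. The groups did not overlap. The log2 fold change was 0.38, SE 0.079, with a 95% interval of 0.20 to 0.55 (limma, adjusted p = 0.00385). Its relative Rnf43 was scarcely detected, with 5, 10 and 4 reads for the controls against 2, 3 and 3 for CAF_CM. No CAF_CM library reached the lowest control, and an exact two-sided permutation test gave p = 0.1, the smallest that 3 libraries against 3 allow. The same permutation test also gave p = 0.1 for Tcf7, Tcf7l2, Axin2, Znrf3 and Ctnnb1, so it does not set Rnf43 apart from them. The summed Rnf43 reads, 19 and 8, give a ratio of 0.398 with an exact 95% interval of 0.151 to 0.953 for counting error only. Fitted without the filter on low values, Rnf43 had a log2 fold change of -0.96 (limma, adjusted p = 0.136).

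**Figure D3:**
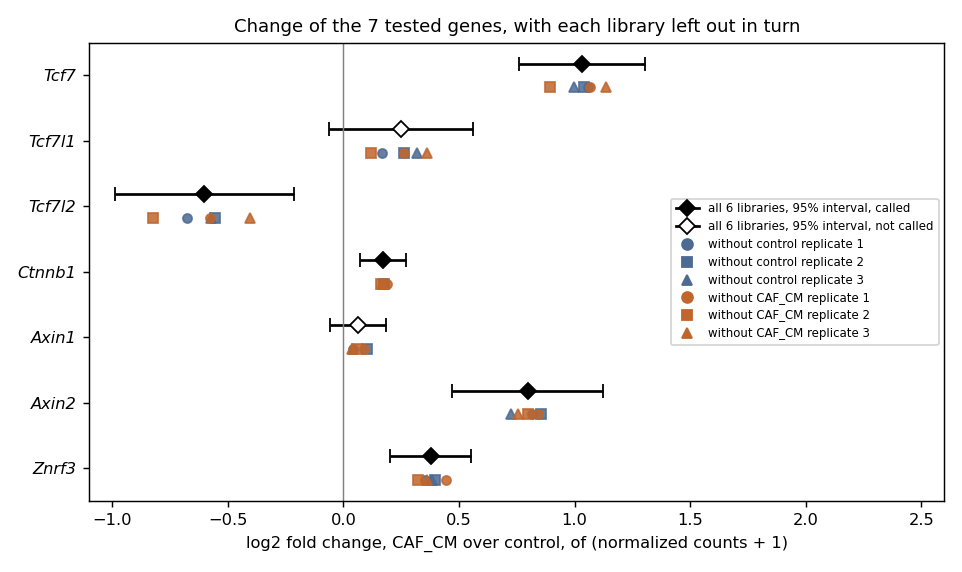
Log2 fold change of the 7 tested genes, CAF_CM over control. Diamonds with 95% intervals are the fit to all 6 libraries, filled where adjusted p was under 0.05, and the small markers below each give the value with 1 library left out; Tcf7l2 moved most, between -0.82 and -0.40.

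Levels can be compared between genes only per length. In normalized counts per kb of longest transcript, the control order was Ctnnb1 at 5010.0 ± 13.7 (SD, n = 3), Axin1 at 372 ± 17.7, Znrf3 at 58.0 ± 1.85, Tcf7l2 at 52.4 ± 4.60, Tcf7 at 49.8 ± 2.07, Tcf7l1 at 37.0 ± 3.86, Axin2 at 10.4 ± 0.978, Rnf43 at 1.49 ± 0.767 and Lef1 at 1.31 ± 0.675. Ctnnb1 ranked 255th per kb among 15763 tested genes with a GENCODE transcript. Tcf7l2 overlapped Tcf7, and Rnf43 overlapped Lef1. In CAF_CM libraries Tcf7 moved up to the third place at 103 ± 18.3 normalized counts per kb, above Znrf3 at 75.6 ± 6.49, and Tcf7l1 (44.3 ± 7.60) overlapped Tcf7l2 (35.4 ± 10.6). With mean transcript lengths, Tcf7 stood below Tcf7l1 in control (58.4 against 85.0 normalized counts per kb) and above it in CAF_CM libraries (121 against 102).

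The rest of the pathway was read from 9 lists of 138 other genes, of which 111 had a row and 100 were tested. Of the 100, 31 were higher and 14 lower in CAF_CM libraries. That is 45%, beside 34.4% over all genes, and their median log2 fold change was 0.15. The 34.4%, here and below, covers genes of every level above the filter on low values. Shares matched for expression level were not computed, and the part of level in these differences was not tested. These lists, too, were chosen with earlier results of these data known. The lists are described from the cell surface inwards.

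**Figure D4:**
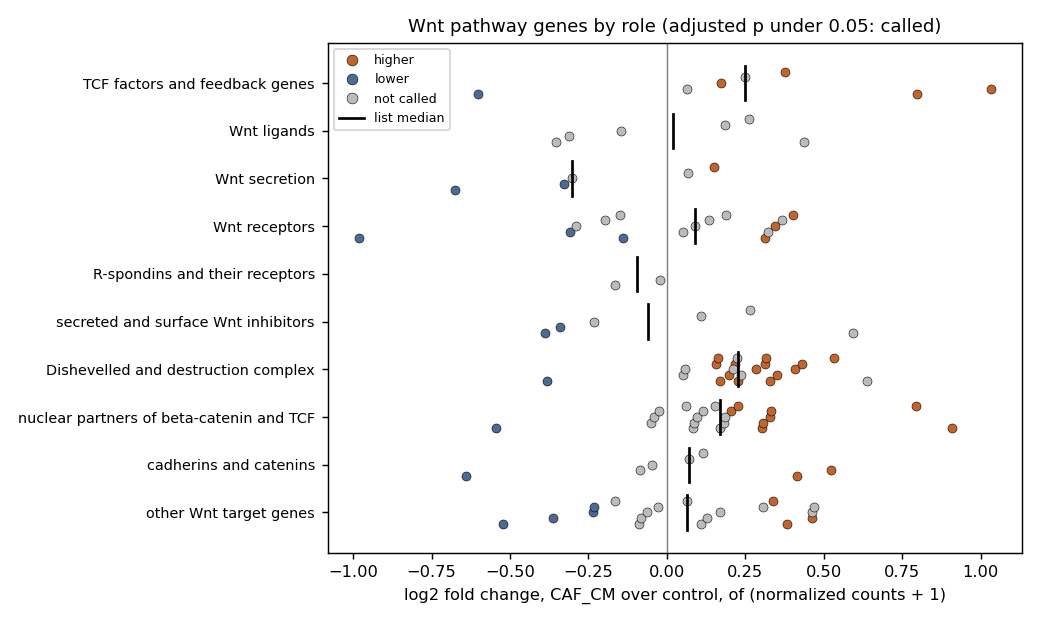
Log2 fold change, CAF_CM over control, of each tested Wnt pathway gene by role, coloured by whether it was called higher, lower or not (limma, adjusted p under 0.05), with a bar at the list median. Points of the Dishevelled and destruction complex list lie mostly to the right of 0, with 14 of 21 called higher, and those of Wnt ligands lie on both sides with none called.

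Of 19 Wnt ligand genes listed, 9 had a row and 6 were tested. Among these 6, 0 were called by limma, edgeR or DESeq2, and 3 had an unadjusted limma p under 0.05. Over all 6 libraries, Wnt5b and Wnt6 had the highest means. Normalized counts of Wnt5b were 91.9 ± 9.68 (control) and 73.5 ± 1.26 (CAF_CM), with a limma adjusted p = 0.0858, and those of Wnt6 were 81.2 ± 7.80 and 63.8 ± 10.8, with an adjusted p = 0.106. Wnt6 passed the threshold without CAF_CM replicate 2 (-0.48, adjusted p = 0.0289). Wnt4, named after its values were seen, had the lowest adjusted p of the ligands and the opposite sign, with 55.9 ± 4.24 normalized counts (control) and 76.9 ± 13.8 (CAF_CM), a log2 fold change of 0.44 and groups that did not overlap (limma, adjusted p = 0.0597). Without CAF_CM replicate 3, and with a correction for transcript length and GC content, 1 ligand was called higher. In the secretion list of 5, Wls, the carrier that brings Wnt proteins to the cell surface, fell from 955 ± 55.2 to 598 ± 35.0 normalized counts (log2 fold change -0.68, adjusted p = 6.08e-05). The retromer subunit gene Vps29 also fell (-0.33, adjusted p = 0.00162), while its partner Vps35 rose (0.15, adjusted p = 0.0290). So 3 of the 5 secretion genes were called, 60%, beside 34.4% over all genes. The Vps35 call was lost without control replicate 1 (adjusted p = 0.106), control replicate 2 (0.127), control replicate 3 (0.0696) or CAF_CM replicate 3 (0.0867), with library totals as the scaling (0.109) and in DESeq2 (0.0637).

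Of 15 receptor genes, 3 rose and 3 fell, so 40% were called, near the 34.4% over all genes. Ror1, a receptor for non-canonical Wnt signals, fell from 432 ± 7.26 to 221 ± 42.4 normalized counts (log2 fold change -0.98, adjusted p = 1.91e-04). The co-receptor gene Lrp6 rose from 2501 ± 91.2 to 3313 ± 360.4 normalized counts (0.40, adjusted p = 0.00163), and the Frizzled genes Fzd3 (0.35) and Fzd7 (0.31) rose too. The other falls were Fzd6, another Frizzled gene (-0.31, limma, adjusted p = 0.0111), and Ptk7, which encodes a Wnt co-receptor (-0.14, adjusted p = 0.0398). Both were named after their values were seen. Without CAF_CM replicate 1 the receptors called higher numbered 5, and without control replicate 3 those called lower numbered 1. Lgr4 and Lgr5 are receptors for R-spondins, which protect Frizzled from Znrf3 and Rnf43. Neither passed in limma, edgeR or DESeq2, with 0 at an unadjusted p under 0.05. Lgr4 had 981 ± 39.0 normalized counts (control) and 972 ± 133 (CAF_CM), and Lgr5 162 ± 13.7 and 144 ± 8.99. Of 6 secreted and surface inhibitors, Frzb, a soluble Frizzled decoy, fell from 1358 ± 7.99 to 1039.7 ± 65.4 normalized counts (-0.39, adjusted p = 5.38e-04) and Tmem67 fell (-0.34), and 2 others were called higher without CAF_CM replicate 1. Over all libraries, inhibitors called were 33.3%, near the 34.4% over all genes.

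The cytoplasmic list of Dishevelled and destruction complex genes held 14 rises and 1 fall in 21 tested, with a median log2 fold change of 0.23. Those called were 71.4% of the list, beside 34.4% over all genes. The rises numbered 10 without control replicate 1, 11 with the length and GC correction and 17 without CAF_CM replicate 1. The casein kinase gene Csnk1d rose from 3478 ± 13.8 to 4619 ± 68.5 normalized counts (0.41, adjusted p = 7.90e-05). Csnk1g1, a membrane-bound casein kinase, rose by 0.53, and Fbxw11, a ubiquitin ligase subunit that recognises phosphorylated beta-catenin, by 0.35. The exception was Dvl1, which relays the receptor signal and fell from 2444 ± 60.3 to 1875 ± 42.4 normalized counts (-0.38, adjusted p = 1.91e-04). Dvl2 (0.16, limma, adjusted p = 0.0406) and Dvl3 (0.20, adjusted p = 0.0107) rose, by less. Apc (0.24, limma, adjusted p = 0.175) and Btrc (0.051, adjusted p = 0.632) were among the genes not called. The list holds kinases and ligases with many substrates outside the pathway.

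Among 21 nuclear partners of beta-catenin and TCF, 8 rose and 1 fell, and 13 rose without CAF_CM replicate 1. With all libraries, those called were 42.9%, beside 34.4% over all genes. The Groucho co-repressor genes, whose products bind TCF factors in the absence of beta-catenin, did not share a direction. Tle4 rose from 365 ± 16.6 to 632 ± 33.0 normalized counts (0.79, adjusted p = 3.65e-05) and Tle2 fell from 2225 ± 56.8 to 1526 ± 58.9 (-0.54, adjusted p = 4.41e-05), while Tle3, named after its value was seen, rose by 0.21. The co-repressor component gene Tbl1xr1 (0.33) and Nlk (0.30), a kinase that phosphorylates TCF factors, rose. Of 7 cadherin and catenin genes, Cdh1, the E-cadherin that holds beta-catenin at junctions, fell by 0.64 on the log2 scale, and Ctnnd2 (0.42) and Ctnna2 (0.52) rose. Calls in this list also came to 42.9%, beside 34.4% over all genes.

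Other genes known as Wnt targets in some tissue went both ways. Of 19 tested, 3 rose and 4 fell, and 5 rose without CAF_CM replicate 2. With all libraries, those called were 36.8% of the list, close to the 34.4% over all genes. Jag1 rose from 3001 ± 86.3 to 3795 ± 89.0 normalized counts (0.34, adjusted p = 3.35e-04), and Sox4 (0.38) and Sox9 (0.46) rose. Cd44 fell from 482 ± 26.4 to 335 ± 22.8 normalized counts (-0.52, adjusted p = 5.47e-04), and Myc (-0.23), Id2 (-0.23) and Ephb3 (-0.36), named here after their values were seen, were the other falls. Lgr5 is counted in this list too, and the feedback gene Nkd1 and the target Sp5 have no value here.

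Across the 6 libraries, the genes with the pattern most like that of Tcf7, by Pearson's r of log2(value + 1) among 11142 tested genes with a mean of at least 50 normalized counts, were Parvb (0.999), Phf23 (0.998) and Dcun1d3 (0.996). Parvb gave 2740.3, 2681 and 2668 normalized counts for the controls, against 3716, 4129.9 and 3496 for CAF_CM, with CAF_CM replicate 2 highest, as for Tcf7. For Axin2 they were St3gal1 (0.997), Zmiz2 (0.997) and Pitpnb (0.995), with CAF_CM replicate 3 highest for St3gal1 at 98.7 normalized counts. These r values describe 6 libraries in 2 groups and were picked as the highest of many.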

How the data were processed

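Per the labels' protocols, 6 libraries were made from total RNA with an Illumina TruSeq RNA kit. FastQC and DESeq2 appear in the submitters' processing notes, with hg19, a human build, although the symbols are those of mouse. Aligner, counter and mouse build are not given in the sources used here.

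The authors deposited a signal that is never negative, 1 value per gene and library: counts divided by 1 factor per library. Divided by the worth of 1 read in its library, 100% of values came out whole to within 0.001, which gave back the reads. Of 20764 rows, 168 without a symbol, with 0.153% to 0.261% of a library's reads, stayed out. The lowest row total was 10 reads over the 6 libraries, so a gene given as without a value may have had fewer reads.

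Limma 3.58.1 under R 4.3.3, with a trend in its variance prior, compared log2(value + 1) of 3 CAF_CM and 3 control libraries over genes reaching 10 in 3 or more libraries, with Benjamini-Hochberg adjustment over all 16169. It was tested on simulated data. Alternatives were edgeR 4.0.16 and DESeq2 1.42.0 on the recovered reads, other scalings, pseudocounts, filters and weights, a replicate block, a transcript length and GC correction (for 97.5% of genes), and each library left out. Promoter windows are RefSeq's (GRCm38.p6), transcript lengths and overlaps GENCODE M21's.

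The genes and the lists were chosen with earlier results of these data known. The 9 genes are named in full. From each other list, called genes are named, at most the 4 of lowest adjusted p, or the 2 of highest mean where none was called; further names were picked with values in view. The 3 genes most like Tcf7 and Axin2 leave out predicted genes. Markers of acinar, ductal, fibroblast, endothelial and T cells were read as summed values. Fibroblast markers summed to 4395 to 4512 normalized counts in control and 4195 to 4488 in CAF_CM libraries. Most of this came from Pdgfrb (means of 3254 and 3016) and Vim (841 and 930), while Col1a1 had means of 9.09 and 12.5. Of 8 tested, 1 was higher, Col1a2 (means of 78.4 and 111, limma, adjusted p = 0.0299). Also, 1 was lower, Dcn (43.9 and 23.0, adjusted p = 0.0130). Those called were 25%, beside 34.4% over all genes. Col3a1, Lum and Fap had no value. Endothelial markers summed to 197 to 226 and 158 to 191, most of it from Tek (means of 189 and 151). Of 2 tested, 0 were called by limma, edgeR or DESeq2, with 2 at an unadjusted limma p under 0.05. These 2 had opposite signs, Tek with a log2 fold change of -0.32 and Pecam1 with 0.57 (means of 11.5 and 17.4).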

Additional observations from a re-analysis of the deposited data

How the results depend on the processing

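Of 41 single genes examined, 35 kept their direction and their side of the threshold in every alternative run. Besides the 7 tested members, these were picked mainly by lowest adjusted p in a list or by highest r, which favours stable calls. Genes named after their values were seen, such as Ptk7 and Myc, were not among the 41. The log2 fold change of Tcf7 ran from 0.89 to 1.14 and its adjusted p up to 0.00192, that of Axin2 from 0.72 to 0.86 (up to 0.0122) and that of Znrf3 from 0.28 to 0.45 (up to 0.0258). The 6 exceptions were Tcf7l2 (-0.82 to -0.40, adjusted p up to 0.0836), Ctnnb1 (0.13 to 0.20, up to 0.0712), Wnt6, Vps35, Zmiz2 and Lgr4, whose value, not called, ran from -0.11 to 0.0911 with 1 library left out. The calls of Vps35 and Zmiz2 were also lost with all 6 libraries when library totals were the scaling (limma, adjusted p = 0.109 and 0.0832). The cause of these changes was not tested.

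With 1 library left out, the members called numbered 3 to 4 higher and 0 to 1 lower. Ligands ranged over 0 to 1 higher and 0 to 1 lower, secretion genes over 0 to 1 higher, receptors over 3 to 5 higher and 1 to 4 lower, inhibitors over 0 to 2 higher, nuclear partners over 6 to 13 higher, cadherins and catenins over 1 to 2 lower, other targets over 3 to 5 higher, and all genes over 1865 to 3497 higher and 1612 to 2945 lower. With the length and GC correction, 1 ligand and 1 inhibitor were called higher and 2 nuclear partners lower. With library totals, and in DESeq2, 0 secretion genes were called higher. The cause was not tested.

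With the replicate number as a block, 4 members were called higher and 1 lower, as without it, 1 inhibitor was called higher, and 3166 of all genes were higher and 2755 lower. The labels tie no libraries across groups, and same-numbered libraries deviated together only weakly (r = 0.0703, 0.0291 and 0.0305 for numbers 1, 2 and 3), although each correlated best with its own number. Depth limits Lef1 and Rnf43, which rest on 8 to 19 reads a group.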
